A study of Mus musculus with 6 samples.

Results

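A set of 9 genes of Gq-coupled phosphoinositide signalling was followed in mouse hippocampus: the G protein subunit gene Gnaq, the phospholipase C beta genes Plcb1, Plcb3 and Plcb4, the IP3 receptor gene Itpr1, and the protein kinase C genes Prkca, Prkcb, Prkce and Prkcz. They were picked by symbol, and all 9 were among the 30707 genes of the deposited table and the 14012 genes tested. The samples were 3 hippocampal samples infected with a virus that knocks down SFRS8 (the splicing regulator now named Sfswap) and 3 infected with a control virus. Both groups therefore carried a viral infection. The labels give no strain, age or sex of the mice, no type of virus or cells that it reaches, and no time after infection. By its title, the study concerned memory and the splicing of synaptic genes. Values are FPKM, fragments scaled by exon length and library size, so levels of different genes can be set side by side.

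Receptors that couple to Gq, such as group I metabotropic glutamate and muscarinic receptors, activate phospholipase C beta through the Gq alpha subunit. The enzyme splits the membrane lipid PIP2 into diacylglycerol and IP3. IP3 opens the IP3 receptor, a calcium channel of the endoplasmic reticulum, while diacylglycerol activates protein kinase C. In hippocampal neurons this route is known for its part in metabotropic glutamate receptor signalling and synaptic plasticity.

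The libraries held 16622948 to 17731035 reads in knockdown samples and 17241307 to 18097344 in control samples. Sfswap stood at 9.79, 11.3 and 9.58 FPKM in knockdown samples 1 to 3, against 16.7, 18.5 and 19.2 FPKM in control samples 1 to 3 (log2 fold change −0.77, SE 0.09, limma adjusted p = 0.0432). Its direction was the same in all 15 alternatives, but it was called in 6 of them, with adjusted p from 0.0238 to 0.148. Over the tested genes, Pearson correlations were 0.957 to 0.968 between knockdown samples and 0.976 to 0.980 between control samples. Between knockdown and control samples they were 0.939 to 0.965, which overlaps the range between knockdown samples. Summed choroid plexus markers reached 5418, 5106 and 1473 FPKM in knockdown samples 1 to 3, and 101, 127 and 3568 FPKM in control samples 1 to 3, so control sample 3 stood apart within its group. All 8 pan-neuronal, 10 dentate, 9 CA1 and 10 CA3 markers in the table averaged at least 1 FPKM. So did all 9 striatal, all 10 choroid plexus and 11 of 12 thalamic markers, so this bar cannot check the label of the tissue. In these bulk samples, fewer cells of a type and less RNA per cell cannot be told apart.

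The sequences around the start sites of the 3 phospholipase C beta genes are shown because the level of Plcb1 was lower and those of Plcb3 and Plcb4 higher in the knockdown samples. Each runs from 250 bases before to 50 bases after a transcription start in RefSeq (build GRCm38.p6), 5′ to 3′ on the gene's strand. Capitals mark GC boxes (GGGCGG on either strand, neighbouring copies may overlap).
Plcb1, chr2:134785914-134786213, plus strand: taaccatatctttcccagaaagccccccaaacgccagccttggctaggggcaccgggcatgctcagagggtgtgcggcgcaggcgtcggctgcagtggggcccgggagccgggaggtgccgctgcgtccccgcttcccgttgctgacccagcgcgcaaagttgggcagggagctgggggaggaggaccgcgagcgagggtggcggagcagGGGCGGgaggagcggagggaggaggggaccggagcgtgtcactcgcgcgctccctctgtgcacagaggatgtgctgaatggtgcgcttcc
Plcb3, chr19:6969765-6970064, minus strand: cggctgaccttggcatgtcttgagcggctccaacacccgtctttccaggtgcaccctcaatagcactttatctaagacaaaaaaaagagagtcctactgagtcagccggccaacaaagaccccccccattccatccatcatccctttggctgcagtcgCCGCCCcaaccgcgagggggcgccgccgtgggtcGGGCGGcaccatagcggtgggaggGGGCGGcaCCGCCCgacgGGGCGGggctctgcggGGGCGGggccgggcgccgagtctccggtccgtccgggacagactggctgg
Plcb4, upstream start, chr2:135659297-135659596, plus strand: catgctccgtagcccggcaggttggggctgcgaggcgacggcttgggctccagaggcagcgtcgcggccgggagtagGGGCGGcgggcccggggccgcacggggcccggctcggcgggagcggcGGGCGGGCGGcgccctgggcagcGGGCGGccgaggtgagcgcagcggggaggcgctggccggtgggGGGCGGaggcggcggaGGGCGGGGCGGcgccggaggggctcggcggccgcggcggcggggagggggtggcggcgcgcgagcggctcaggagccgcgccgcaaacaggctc
Plcb4, downstream start, chr2:135764588-135764887, plus strand: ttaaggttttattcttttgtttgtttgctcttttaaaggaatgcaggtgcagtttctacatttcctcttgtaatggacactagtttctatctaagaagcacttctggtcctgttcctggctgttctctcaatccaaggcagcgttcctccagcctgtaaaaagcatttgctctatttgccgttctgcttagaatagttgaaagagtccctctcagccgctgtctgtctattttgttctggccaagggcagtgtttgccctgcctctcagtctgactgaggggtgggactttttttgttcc

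The upstream Plcb4 window had 84.0% G and C, 50 CpG dinucleotides and 7 GC boxes. The downstream Plcb4 window, inside the same gene, had 44.3% G and C, 3 CpG dinucleotides and no GC box. The Plcb1 window had 69.7% G and C, 26 CpG dinucleotides and 1 GC box, and the Plcb3 window 67.0%, 27 and 6. Over 32851 such windows the median was 52.7% G and C with 7 CpG dinucleotides, and 35.7% held a GC box. None of these 4 windows held a TATA box (searched as TATAAA on both strands), which 13.6% of all windows held. None held a CCAAT box (the letters CCAAT, on both strands), present in 37.4% of all windows, or an E box (searched as CACGTG, its own reverse complement), present in 7.15%. The Plcb3 window held 1 AP-1 site (TGANTCA, on both strands), present in 7.81% of all windows, and 1 EGR site (GCGNGGGCG, on both strands, whose letters can overlap a GC box), present in 5.55%. A match or its absence describes these letters only. The table gives values per gene, so reads from the 2 Plcb4 starts were not told apart.

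A further window is shown for Prkcz, the gene whose level differed least. An internal start of Prkcz is known to give rise to PKMζ, a brain form of the kinase that lacks the regulatory part and has been studied in the maintenance of long-term potentiation. RefSeq has 2 internal windows here, and which of them serves PKMζ was not determined. Capitals mark the full cAMP response element TGACGTCA, which begins 7 bases before this start and contains the shorter site TGACG on both strands. It was present in 1.79% of all windows.
Prkcz, internal start, chr4:155345740-155346039, minus strand: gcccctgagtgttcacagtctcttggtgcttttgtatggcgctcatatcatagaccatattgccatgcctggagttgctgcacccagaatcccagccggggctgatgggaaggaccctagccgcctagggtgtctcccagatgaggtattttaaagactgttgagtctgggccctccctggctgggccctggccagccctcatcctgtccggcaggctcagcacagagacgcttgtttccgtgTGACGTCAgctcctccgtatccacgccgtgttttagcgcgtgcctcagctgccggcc

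The 9 genes were chosen with the knockdown against control contrast of these samples known, so their differences are given as a description, without a test. The 6 genes Gnaq, Plcb1, Itpr1, Prkca, Prkcb and Prkce had lower means in knockdown samples. The 3 genes Plcb3, Plcb4 and Prkcz had higher means, Prkcz by less than the spread between samples. The ratio of knockdown to control means ran from 0.660 for Plcb1 to 2.13 for Plcb4. The median log2 difference was −0.14 over the 9 genes and 0.02 over all genes tested. The groups did not overlap for 1 gene that was lower (Plcb1, background 11.8% of genes tested) and 2 that were higher (Plcb3 and Plcb4, background 18.0%). Plcb1 was the only member that limma called, beside 1.43% of all genes tested, and nothing is read from that count. Control sample 3 was the only control library with high choroid plexus markers. With it left out, all 3 knockdown samples had higher choroid plexus sums than the remaining controls, so the groups still differed in these markers. The log2 differences were then −0.62 for Plcb1, −0.46 for Prkce and −0.37 for Prkca. They were −0.24 for Gnaq, −0.15 for Prkcb and −0.06 for Itpr1. Without the same sample they were 0.73 for Plcb4 and 0.20 for Plcb3, and within 0.01 of 0 for Prkcz. Plcb1 was called in 4 of 15 alternatives and in none that left out 1 of the 6 samples. The genes were chosen with this contrast known, so nothing is read from its call either.

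**Figure D1:**
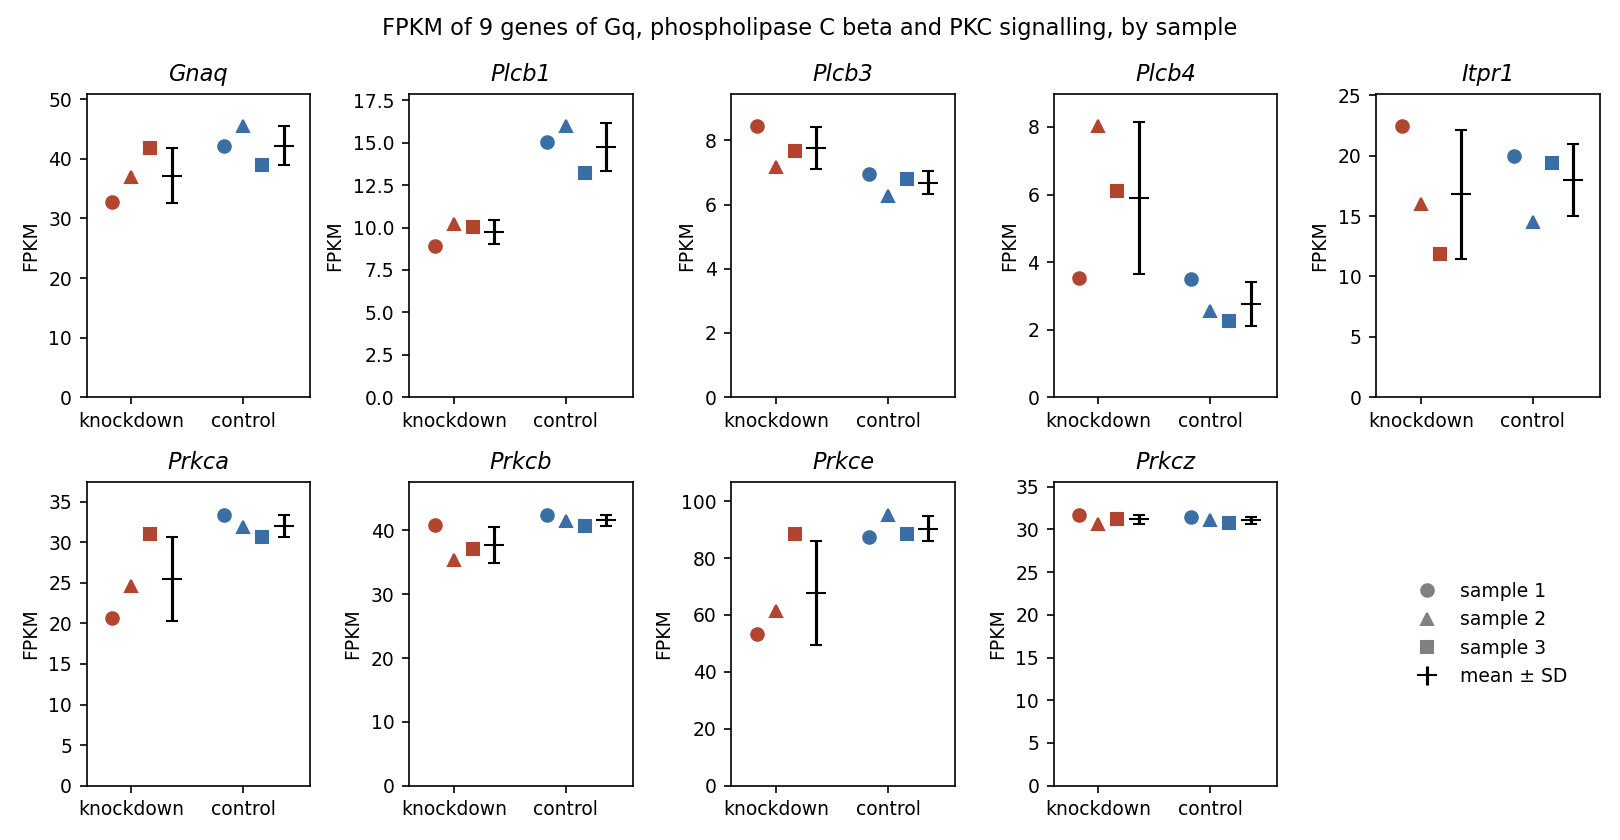
FPKM of the 9 genes in each sample, with knockdown at left (red) and control at right (blue); symbols mark sample numbers and black bars the mean ± SD (n = 3 each). Plcb1 lies between 8.93 and 10.2 FPKM in knockdown samples, below all control samples, while Prkce and Prkca in knockdown sample 3 lie at the control level.

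Gnaq encodes the alpha subunit that carries the signal from the receptor to phospholipase C beta (ENSMUSG00000024639, mm10 chr19:16132831-16387463, plus strand). It had 32.7, 37.0 and 41.9 FPKM in knockdown samples 1 to 3, against 42.2, 45.5 and 39.0 FPKM in control samples 1 to 3. Knockdown samples 1 and 2 were below every control sample, and knockdown sample 3 was within the control range. Means were 37.2 ± 4.59 FPKM in knockdown samples and 42.2 ± 3.27 FPKM in control samples (SD, n = 3 each), a log2 difference of −0.18 (SE 0.11) that was −0.27 without knockdown sample 3 and −0.10 without knockdown sample 1. Gna11, which encodes the closely related subunit G11, stood at 25.5 ± 2.06 FPKM in knockdown samples and 34.4 ± 1.30 FPKM in control samples and narrowly missed the threshold (log2 fold change −0.42, SE 0.08, limma adjusted p = 0.0503). Gnaq made up 56.7% ± 3.42 of the summed FPKM of the 4 Gq class genes in knockdown samples and 54.0% ± 2.78 in control samples (SD, n = 3 each), so its share overlapped between the groups.

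Plcb1 encodes the phospholipase C beta isoform known to be abundant in hippocampus and cortex (ENSMUSG00000051177, mm10 chr2:134786067-135475258, plus strand). It had 8.93, 10.2 and 10.1 FPKM in knockdown samples 1 to 3, against 15.0, 16.0 and 13.2 FPKM in control samples 1 to 3. All 3 knockdown samples were below all 3 control samples, with a gap of 3.01 FPKM between the groups. Means were 9.73 ± 0.695 FPKM in knockdown samples and 14.7 ± 1.41 FPKM in control samples (SD, n = 3 each), and the log2 difference of −0.55 (SE 0.09) lay between −0.62 and −0.49 with each sample left out in turn. Among the 9 genes, Prkcz had the smallest coefficient of variation between knockdown samples, 1.72%. Plcb1 came next at 7.14%, close to Prkcb at 7.49% and Plcb3 at 8.26%. Summed pan-neuronal markers were 88.7% of the control mean in knockdown samples and dentate markers 75.7%, and their part in the Plcb1 values was not tested.

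Plcb4, the isoform known from cerebellar Purkinje cells and thalamus, was higher in the knockdown samples (ENSMUSG00000039943, mm10 chr2:135659011-136014593, plus strand). It had 3.53, 8.03 and 6.11 FPKM in knockdown samples 1 to 3, against 3.50, 2.54 and 2.25 FPKM in control samples 1 to 3. Knockdown samples 2 and 3 were well above the controls, while knockdown sample 1 exceeded control sample 1 by only 0.0290 FPKM. Means were 5.89 ± 2.26 FPKM in knockdown samples and 2.77 ± 0.655 FPKM in control samples (SD, n = 3 each), a log2 difference of 0.83 (SE 0.26) that was 0.61 without knockdown sample 2 and 1.10 without knockdown sample 1. These values rested on 363 to 1197 reads per sample, where counting alone gives a coefficient of variation of at most 5.25%, against 38.3% between knockdown samples and 23.7% between control samples.

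The summed thalamic markers had the same order of samples as Plcb4 within each group. The summed level of the 12 listed markers, with the PKC gene Prkch among them, was 39.2, 135 and 95.0 FPKM in knockdown samples 1 to 3 and 54.4, 47.6 and 41.2 FPKM in control samples 1 to 3. In knockdown sample 1 this sum was below every control sample, while Plcb4 was not. Of the 11 markers above 1 FPKM on average, 9 had higher mean log2(FPKM + 1) in knockdown samples and 1 was called higher, and none was at 0 in every sample. Their mean difference from the control level on the log2(FPKM + 1) scale was 0.15, 1.43 and 1.06 in knockdown samples 1 to 3, the same order as Plcb4 at 0.28, 1.27 and 0.93. Their part in the Plcb4 values was not tested.

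Plcb3, a widely expressed isoform, differed less (ENSMUSG00000024960, mm10 chr19:6953714-6969759, minus strand). It had 8.44, 7.17 and 7.66 FPKM in knockdown samples 1 to 3, against 6.96, 6.27 and 6.80 FPKM in control samples 1 to 3. The groups did not overlap, but the gap between them was 0.216 FPKM. Means were 7.76 ± 0.641 FPKM in knockdown samples and 6.68 ± 0.357 FPKM in control samples (SD, n = 3 each), a log2 difference of 0.19 (SE 0.08). Microglia markers, which summed to 819, 518 and 511 FPKM in knockdown samples 1 to 3 and 401, 420 and 311 FPKM in control samples 1 to 3, were likewise highest in knockdown sample 1. So were the sums of CA1 (274 FPKM), striatal (102 FPKM) and choroid plexus markers (5418 FPKM). Among controls, microglia markers were highest in control sample 2, where Plcb3 was lowest. The part of these markers in the Plcb3 values was not tested.

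Plcb1 and Plcb4 lie on the same strand of chromosome 2 with 183752 bp between them, and GENCODE M21 places 1 gene there, which is not protein-coding. The ratio of Plcb1 to Plcb4 in FPKM was 2.53, 1.27 and 1.65 in knockdown samples 1 to 3, and 4.29, 6.28 and 5.86 in control samples 1 to 3. The sum of the 4 phospholipase C beta genes was 25.1 ± 1.84 FPKM in knockdown samples and 25.0 ± 1.81 FPKM in control samples (SD, n = 3 each), so the difference in the total was smaller than the spread between samples. Plcb1 supplied 38.8% ± 0.852 of that sum in knockdown samples and 58.9% ± 2.86 in control samples. Plcb4 supplied 23.1% ± 7.40 in knockdown samples and 11.0% ± 1.98 in control samples. Plcb2, known from blood and immune cells, supplied 6.83% ± 2.37 in knockdown samples and 3.29% ± 0.201 in control samples.

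**Figure D2:**
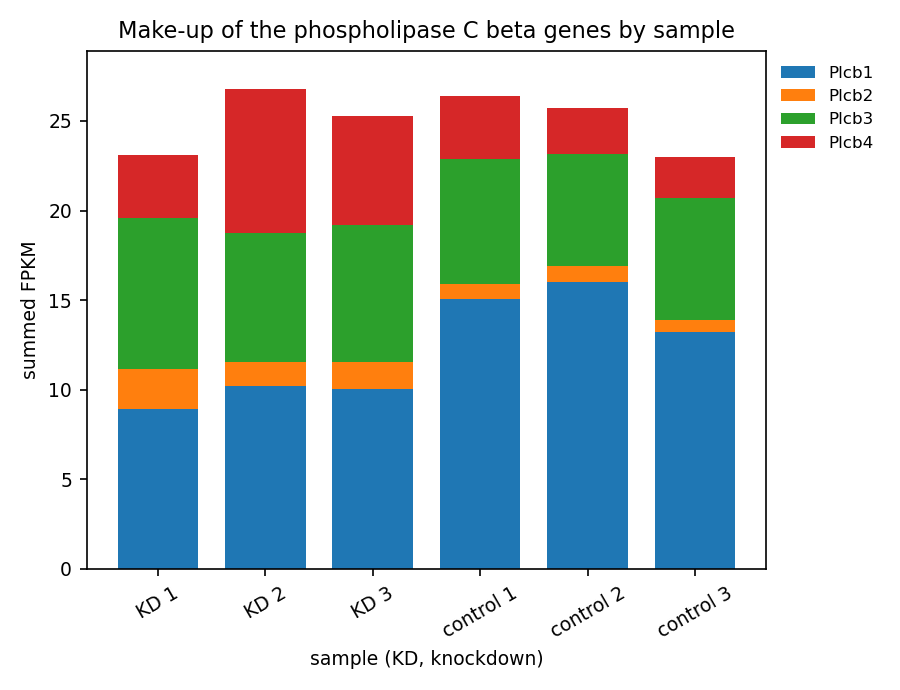
Summed FPKM of the 4 phospholipase C beta genes in each sample, stacked by gene, with knockdown samples left of control samples. The phospholipase C beta sum averages 25.1 FPKM in knockdown samples and 25.0 in control samples, with a smaller Plcb1 segment in all 3 knockdown samples.

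Itpr1 encodes the main neuronal IP3 receptor, the channel through which IP3 releases stored calcium (ENSMUSG00000030102, mm10 chr6:108213096-108551109, plus strand). It had 22.5, 16.0 and 11.9 FPKM in knockdown samples 1 to 3, against 20.0, 14.5 and 19.4 FPKM in control samples 1 to 3. Knockdown sample 1 held the highest value of the 6 samples and knockdown sample 3 the lowest, so the groups overlapped throughout. Means were 16.8 ± 5.33 FPKM in knockdown samples and 18.0 ± 3.01 FPKM in control samples (SD, n = 3 each), and the log2 difference of −0.12 (SE 0.22) was −0.34 without knockdown sample 1 and 0.09 without knockdown sample 3. CA1 markers summed to 274, 184 and 144 FPKM in knockdown samples 1 to 3 and to 198, 198 and 226 FPKM in control samples 1 to 3, and so followed the same order among knockdown samples. Their part in the Itpr1 values was not tested. Itpr1 made up 82.6% ± 4.21 of the summed IP3 receptor FPKM in knockdown samples and 87.3% ± 1.59 in control samples.

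Prkce encodes PKC epsilon, a kinase that responds to diacylglycerol without needing calcium (ENSMUSG00000045038, mm10 chr17:86167785-86657919, plus strand). It was the most abundant of the 9 genes, with 53.5, 61.2 and 88.3 FPKM in knockdown samples 1 to 3, against 87.2, 95.3 and 88.4 FPKM in control samples 1 to 3. Knockdown samples 1 and 2 lay far below the controls, and knockdown sample 3 was inside their range. Means were 67.7 ± 18.3 FPKM in knockdown samples and 90.3 ± 4.36 FPKM in control samples (SD, n = 3 each). Its log2 difference of −0.44 (SE 0.17) was −0.65 without knockdown sample 3 and −0.29 without knockdown sample 1.

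Prkca, which encodes the calcium-dependent PKC alpha (ENSMUSG00000050965, mm10 chr11:107933387-108343928, minus strand), showed a like pattern. It had 20.7, 24.6 and 30.9 FPKM in knockdown samples 1 to 3, against 33.4, 31.9 and 30.7 FPKM in control samples 1 to 3. Knockdown sample 3 again overlapped the controls, while samples 1 and 2 of the knockdown group did not. Means were 25.4 ± 5.18 FPKM in knockdown samples and 32.0 ± 1.38 FPKM in control samples (SD, n = 3 each), and the log2 difference of −0.34 (SE 0.14) was −0.49 without knockdown sample 3 and −0.21 without knockdown sample 1. Among the 36 pairs that the 9 genes form, Prkca and Prkce had the closest profiles, with a root mean square difference of 0.11 over 6 samples on the log2(FPKM + 1) scale after subtracting each gene's control mean. Plcb1 and Plcb4 were the most distant pair, at 1.01.

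Neuronal markers also differed among these samples. Markers of dentate granule cells summed to 101, 114 and 171 FPKM in knockdown samples 1 to 3 and to 145, 183 and 182 FPKM in control samples 1 to 3. For 8 of the 10 dentate markers the mean was lower in knockdown samples, with 1 called lower, and none was at 0 in every sample. CA3 markers, with Prkcd among them, summed to 82.0, 149 and 178 FPKM in knockdown samples 1 to 3 and to 132, 139 and 129 FPKM in control samples 1 to 3. Prkcd alone supplied 15.1, 34.2 and 24.7 FPKM of these sums in knockdown samples 1 to 3. In control samples 1 to 3 it supplied 8.53, 9.86 and 5.92 FPKM, so the sums do not give the level of the other CA3 markers. Only 3 of the 10 CA3 markers, Prkcd among these, had higher mean log2(FPKM + 1) in knockdown samples. None was called higher and 1 was called lower. Pan-neuronal markers summed to 892, 924 and 938 FPKM in knockdown samples 1 to 3, and to 1040, 1038 and 1027 FPKM in control samples 1 to 3. The part of these markers in the Prkca, Prkce and Gnaq values was not tested.

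Prkcb, which encodes the calcium-dependent PKC beta (ENSMUSG00000052889, mm10 chr7:122288751-122634402, plus strand), had 40.8, 35.3 and 37.1 FPKM in knockdown samples 1 to 3, against 42.5, 41.5 and 40.7 FPKM in control samples 1 to 3. Here knockdown sample 1, not sample 3, was at the control level. Means were 37.7 ± 2.83 FPKM in knockdown samples and 41.6 ± 0.865 FPKM in control samples (SD, n = 3 each), a log2 difference of −0.14 (SE 0.08).

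Prkcz encodes the atypical PKC zeta, which needs neither calcium nor diacylglycerol, and, from an internal start, its PKMζ form (ENSMUSG00000029053, mm10 chr4:155260129-155361361, minus strand). It had 31.7, 30.7 and 31.2 FPKM in knockdown samples 1 to 3, against 31.5, 31.1 and 30.7 FPKM in control samples 1 to 3. The groups overlapped fully. Means were 31.2 ± 0.538 FPKM in knockdown samples and 31.1 ± 0.386 FPKM in control samples (SD, n = 3 each), and the log2 difference of 0.01 (SE 0.06) changed sign under 4 of 11 alternatives. The spread of 1.72% between knockdown samples and 1.24% between control samples was the smallest of the 9 genes and no larger than the 1.76% that counting alone gives at its fewest reads. How PKCζ and PKMζ shared this total was not analysed here.

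**Figure D3:**
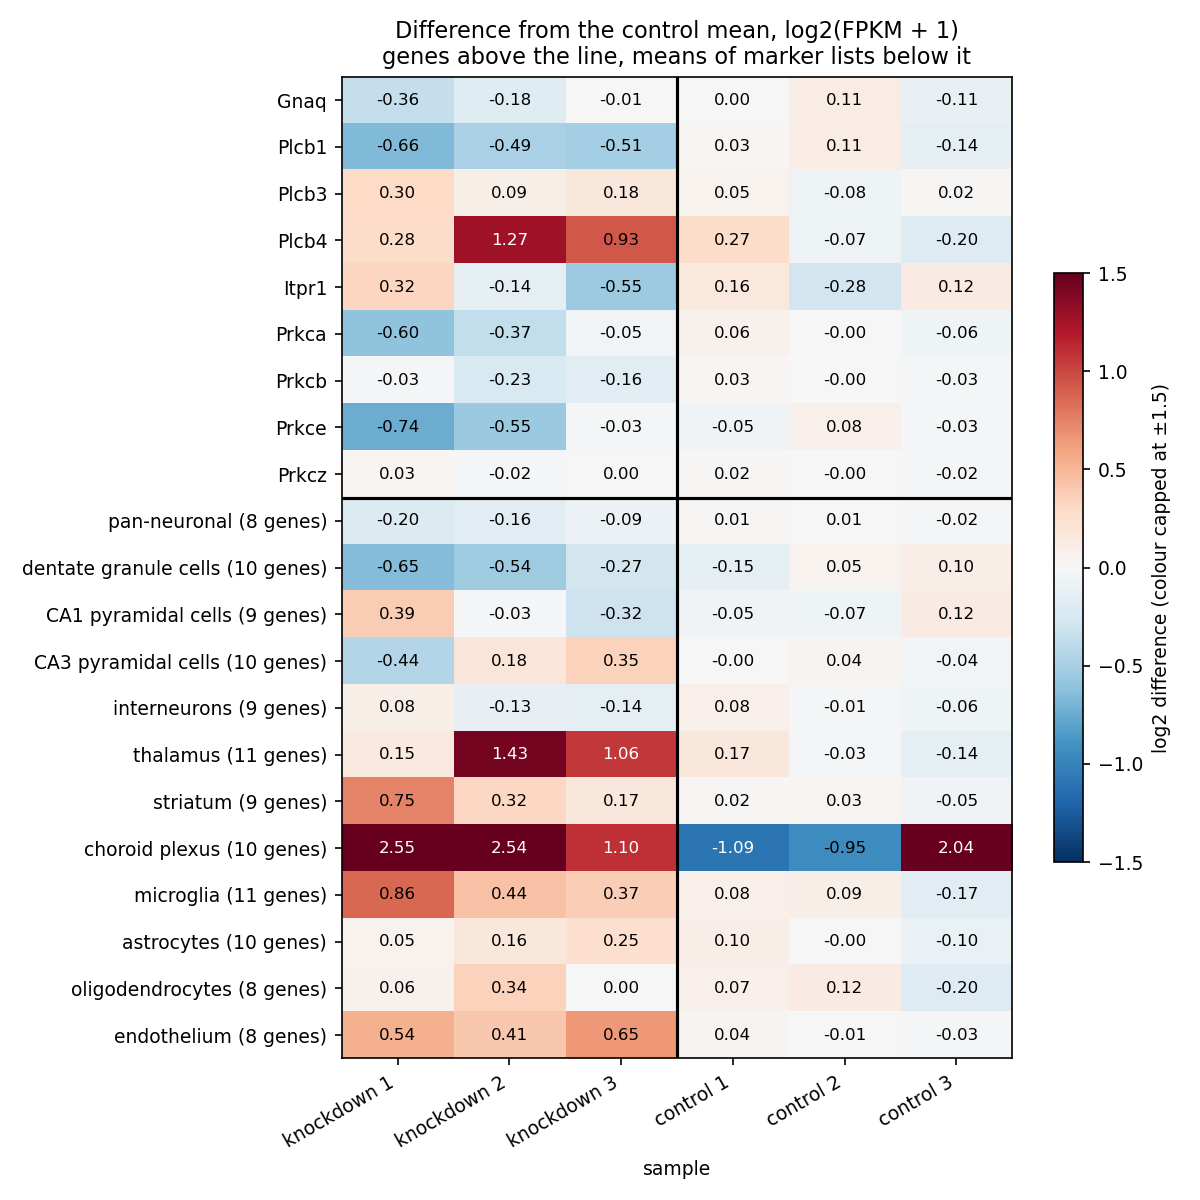
Difference of each sample from the control mean on the log2(FPKM + 1) scale, for the 9 genes (above the line) and as the mean over each list of cell type or region markers (below it), with knockdown samples left of control samples; each cell prints its value and colour is capped at ±1.5. Plcb4 and the thalamus list share their order among knockdown samples, with 1.27 and 1.43 in knockdown sample 2.

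Levels were ordered alike in both groups at their ends. By mean level, Prkce was highest and Plcb1, Plcb3 and Plcb4 were the lowest 3, in knockdown as in control samples. Gnaq and Prkcb overlapped in either group, as did Prkca and Prkcz, so neither pair could be ordered. In knockdown samples Prkca also overlapped with Itpr1, and Plcb3 with Plcb4, so these neighbours could not be ordered there, whereas they were separate in control samples. In control samples Itpr1 overlapped with Plcb1, whose ranges were separate in knockdown samples. Between samples of a group, the coefficient of variation was larger among knockdown than control samples for 8 of the 9 genes, all but Plcb1, and for 64.8% of the genes tested. Its median was 12.4% in knockdown samples and 5.35% in control samples over the 9 genes, and over all genes tested it was 11.99% in knockdown samples and 8.45% in control samples.

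Outside the 9, the gene of closest profile to Plcb1 was Cpeb1, with 12.9, 15.8 and 16.5 FPKM in knockdown samples 1 to 3 and 22.2, 24.4 and 20.9 FPKM in control samples 1 to 3 (root mean square difference 0.06 over 6 samples). Rab37 was closest to Plcb4, with 1.01, 3.26 and 2.29 FPKM in knockdown samples 1 to 3 and 0.936, 0.508 and 0.397 FPKM in control samples 1 to 3 (0.08). The log2(FPKM + 1) scale used for these profiles understates changes of low genes. The ratio of knockdown to control means was 3.56 for Rab37 and 2.13 for Plcb4. Ccbe1 was closest to Prkce (0.04), Ywhah to Prkca (0.04), Cds1 to Itpr1 (0.09) and Tbl1xr1 to Gnaq (0.02). In the deposited annotation, 7 of the 9 genes carried the GO term intracellular signal transduction, the exceptions being Itpr1 and Gnaq.

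The rest of the pathway was counted over 9 lists with 161 genes, of which 147 were tested. With limma at an adjusted p under 0.05 over all 14012 genes, 3 rose and 1 fell, beside a background of 1.20% of genes called higher and 0.228% called lower. As the lists were chosen with earlier results of these data known, nothing is read from these counts. Adra1b, the α1B-adrenergic receptor gene and 1 of 18 Gq-coupled receptors tested, rose to 4.24 ± 0.755 FPKM in knockdown samples, against 1.55 ± 0.114 FPKM in control samples (SD, n = 3 each; log2 fold change 1.03, SE 0.13, limma adjusted p = 0.0432). Single samples had 3.39, 4.82 and 4.51 FPKM in the knockdown group and 1.68, 1.47 and 1.50 FPKM in the control group, so knockdown samples 2 and 3 were highest, as for the thalamic markers, whose part in this rise was not tested. Atp2a3, which encodes the calcium pump SERCA3 of the endoplasmic reticulum, rose to 4.08 ± 0.581 FPKM in knockdown samples, against 1.91 ± 0.106 FPKM in control samples (log2 fold change 0.80, limma adjusted p = 0.0432).

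Inpp5a, whose product removes the 5-phosphate of IP3 and so ends its signal, rose to 10.5 ± 0.748 FPKM in knockdown samples, against 6.48 ± 0.885 FPKM in control samples (SD, n = 3 each; log2 fold change 0.62, SE 0.10, limma adjusted p = 0.0472). Chn1 encodes the diacylglycerol-binding protein α-chimaerin, a GTPase-activating protein (GAP) for Rac. Chn1 fell to 49.7 ± 6.45 FPKM in knockdown samples, against 75.4 ± 3.38 FPKM in control samples (log2 fold change −0.60, SE 0.10, limma adjusted p = 0.0477). The part of the lower pan-neuronal and dentate markers in this fall was not tested. These 4 genes kept their direction under every alternative in which they were tested, but each was called in only 3 or 4 of its 14 or 15 alternatives, where their limma or voom adjusted p ran from 0.0238 to 0.152. Without knockdown sample 2, Adra1b and Marcksl1 were called higher and Gna11 lower, and without any other single sample none of the 147 was called.

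**Figure D4:**
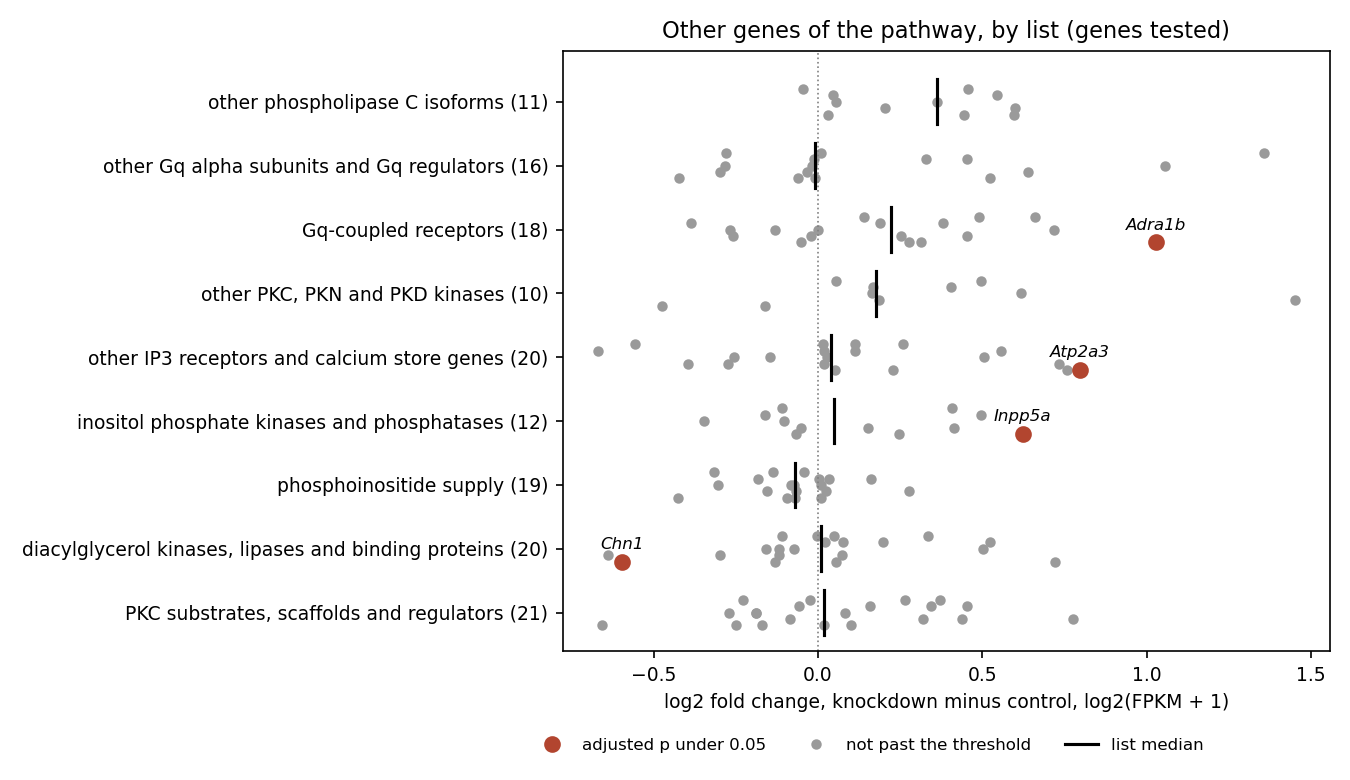
Log2 fold change (knockdown minus control) of the 147 other pathway genes tested, by list with the number tested in brackets; red points passed an adjusted p under 0.05 in limma, grey points did not, and black lines are list medians. The 3 red points on the right are Adra1b, Atp2a3 and Inpp5a, and Chn1 is on the left.

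Over all genes tested, 15.7% were higher and 7.98% lower at an unadjusted p under 0.05 in limma, and voom called 4.06% higher and 0.782% lower of the 12274 genes with recovered reads. These shares are the background of the counts by list that follow. Voom covered 131 of the 147 other pathway genes, so its counts can be out of fewer genes than the list sizes given, which are those of limma.

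Among the other PKC, PKN and PKD kinases 0 of 10 were called (limma; 4 higher and 1 lower at an unadjusted p under 0.05, and 1 higher and 1 lower with voom). Prkcd, known to be strong in thalamus and counted here among the CA3 markers, had 15.1, 34.2 and 24.7 FPKM in knockdown samples 1 to 3, against 8.53, 9.86 and 5.92 FPKM in control samples 1 to 3 (log2 fold change 1.45, SE 0.29, limma adjusted p = 0.0568). Knockdown sample 2 was highest for Prkcd, as it was for Plcb4.

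None of the 11 other phospholipase C genes was called by limma, although 10 had higher means in knockdown samples (median log2 fold change 0.36), 6 were higher at an unadjusted p under 0.05 and voom called 4 higher. Plce1, a phospholipase C controlled by small GTPases, stood at 2.61 ± 0.209 FPKM in knockdown samples and 1.39 ± 0.194 FPKM in control samples (limma adjusted p = 0.05003, just over the threshold). Of 16 other Gq subunits and regulators 0 were called by limma (5 higher and 2 lower at an unadjusted p under 0.05, with 1 and 1 by voom), with a median of −0.01. Rgs4, which speeds the shut-off of Gq, had 56.1, 66.3 and 118 FPKM in knockdown samples 1 to 3, against 36.6, 38.0 and 34.0 FPKM in control samples 1 to 3 (log2 fold change 1.05, SE 0.25, limma adjusted p = 0.0738). Medians of the remaining lists were 0.22 for Gq-coupled receptors, 0.18 for the kinases, 0.04 for calcium store genes and 0.05 for inositol phosphate enzymes.

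In the other 3 lists the median was −0.07 for the 19 genes of phosphoinositide supply, 0.01 for the 20 genes around diacylglycerol and 0.02 for the 21 PKC substrates and scaffolds. No gene of the first or last of these was called by limma (1 higher and 2 lower, and 5 higher and 6 lower, at an unadjusted p under 0.05, with 0 and 1, and 1 and 1, by voom). Nrgn, the PKC substrate neurogranin, had 724, 612 and 804 FPKM in knockdown samples 1 to 3, against 1005, 1179 and 1182 FPKM in control samples 1 to 3 (limma adjusted p = 0.0511). The part of the lower neuronal markers in these values was not tested. Over all 147 genes the groups did not overlap for 40 that were higher and 24 that were lower, 43.5% in all, beside 29.9% of all genes tested. The median log2 fold change was 0.03, against 0.02 over all genes. The lists were chosen with earlier results of these data known, so nothing is read from these values.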

How the data were processed

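The authors deposited 1 table of FPKM values per gene for 6 samples, made from oligo(dT)-selected RNA with random-primed cDNA, per the labels' protocols, which state no strand. The build was mm10 per the submitters' processing notes. Aligner, counter and annotation: not given in the sources used here. FPKM times GENCODE M21 exon length came out within 0.01 of whole reads for 90.9% to 91.1% of values above 0, from which library totals and read numbers were taken. Plcb3 gave no whole reads, since its bounds differ there. Exons of other genes covered at most 6.50% of a member's exon bases (Prkce, by a gene on the same strand). Such reads cannot be told apart here, nor, without strand, can those from overlaps on opposite strands.

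Genes averaging 1 FPKM or more were tested with limma 3.58.1 in R 4.3.3 on log2(FPKM + 1), two-sided, with a variance trend and Benjamini-Hochberg adjustment over all of them. Differences are knockdown minus control on that scale, which understates changes of low genes. Whether samples came from separate animals is not labelled, and p-values may reflect technical spread alone. The members and lists were chosen with earlier results of these data known. Named genes were the members, pathway genes called or among the 3 of smallest p in a list, the closest profiles, and Sfswap, with Plcb2 for the family sum. Alternatives were other pseudocounts, filters, scalings, voom, a replicate block, no variance trend and each sample left out.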

Additional observations from a re-analysis of the deposited data

How the results depend on the processing

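Pseudocounts of 0.1 and 0.5, scaling to the same FPKM sum or by median ratios, voom on the recovered reads, and leaving out each sample kept the direction of Plcb1, Plcb3, Plcb4, Prkca, Prkcb, Prkce and Gnaq wherever they were run, which for Plcb3 excludes voom. Itpr1 changed sign in 1 of 11, without knockdown sample 3, and Prkcz in 4 of 11. No scaling moved the median of all genes by as much as 0.1. Counts of calls depended strongly on the setting. Over the whole table, where 168 genes were higher and 32 lower, a pseudocount of 0.1 gave 290 and 64, a pseudocount of 0.5 gave 274 and 64, a filter at 5 FPKM gave 170 and 65, the same FPKM sum gave 1 and 2, median-ratio scaling gave 9 and 6, and voom gave 498 and 96. No filter and no variance trend each gave 0 and 0. Leaving out samples gave 0 to 160 higher and 0 to 30 lower, with 160 and 30 without knockdown sample 2, 16 and 7 without knockdown sample 3, 8 and 0 without control sample 3, and 0 and 0 without any of the others. For the other pathway genes, 3 higher and 1 lower became 6 and 5 with either pseudocount, 3 and 4 with the filter at 5 FPKM, 15 and 6 with voom, and 0 and 0 with no filter, either scaling or no variance trend, and 0 to 2 and 0 to 1 when samples were left out. Where limma called 0, between 1639 and 2938 genes were higher and 686 to 1478 lower at an unadjusted p under 0.05, and 29 to 40 and 12 to 24 among the pathway genes. The cause of these shifts was not tested.

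With the replicate number as a block, the counts were 0 and 0 over the whole table and 0 and 0 for the pathway genes. Deviations of same-numbered samples from their group means correlated at 0.05, 0.04 and −0.01. Knockdown samples 1 and 3 correlated best with a control sample of another number, and knockdown sample 2 with control sample 2. Correlations this small, from 3 samples per group, cannot show whether same-numbered samples were handled together, and the sample titles give only the number. All called adjusted p-values lay between 0.0432 and 0.0490. Of the 8 members with recovered reads, all but Prkcz varied more between samples of each group than counting gives at their fewest reads, and for Plcb3 this could not be compared.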
